A study of Gallus gallus with 27 samples.

Results

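The regions described here are the stretches of chromatin that were open in E2-only cells of the chick vagal region at Hamburger-Hamilton stage 18 (HH18) and much less open in the other sorted populations of that stage. They were chosen from a table of sequencing read counts over 140062 genomic intervals, of which 140061 are 200 bp wide. An interval was taken when its mean CPM (counts scaled to a common library total) plus 1 in HH18 E2-only cells was at least 3 times that in HH18 double-positive cells and at least 3 times that in HH18 double-negative cells. This selected 3449 intervals, 2.46% of all. The rule used the HH18 values themselves, so those values are given as a description without a test, and tests were made on the HH25 libraries, which had no part in the choice.

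Accessibility was read by ATAC-seq, in which a transposase inserts sequencing adapters into open DNA. Cells were sorted from dissected vagal regions of wild-type embryos electroporated at HH8/9 with the reporters NC2:citrine and E2:citrine, and used at HH18 or HH25. Each stage gave 3 groups of 3 libraries, namely E2-only cells (NC2-negative, E2-positive), double-positive cells (positive for both) and double-negative cells (negative for both). All 6 groups carry the same strain and the same electroporation, and differ in the reporter signal sorted for and in stage. The labels name citrine for both reporters and do not say how the sort separated them. Electroporation reaches only part of a tissue, so double-negative cells may include neural crest that took up no reporter, and this was not tested.

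The vagal neural crest is a migratory population that leaves the dorsal hindbrain and first somite levels and forms most of the enteric nervous system, along with glia, connective tissue and parts of the heart outflow tract. NC2 and E2 are known as enhancers of FOXD3 and SOX10, transcription factor genes of early crest and of migrating crest and its neural derivatives. Distal enhancers open in a cell type and stage specific way, so sites open in 1 sorted population can mark regulatory elements used by those cells. The table pairs no interval with a gene, and no genome or annotation of its build was used, so intervals are named by position alone and the sorted identities were not checked against marker genes.

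Across the 18 libraries, totals ran from 992341 to 6976050 reads, and the next lowest total was 2586375. The shallowest library was HH18 double-negative replicate 2, in which 3 counts correspond to 3.02 CPM. In the deepest, HH18 E2-only replicate 1, they correspond to 0.43 CPM. The lowest count was held by 33271 intervals in the shallowest library and by 3100 in the deepest. Depth thus differed between populations that the rule compares. Without the shallowest library the rule selected 3593 intervals, 2942 of them among the 3449. Spearman correlations between libraries of a group were 0.87 to 0.91 for HH18 E2-only, 0.83 to 0.84 for HH18 double-positive, 0.69 to 0.79 for HH18 double-negative and 0.77 to 0.87 in the HH25 groups. The lowest deposited count was 1 in every library. Whether 1 was added to each count is not stated. If it was, a count summed over 3 libraries holds 3 reads fewer than printed, and low CPM values and ratios near them change. With 1 subtracted from each count the rule selected 4457 intervals. Amplified reads are not independent molecules, so a read count is not a count of molecules. A change in the share of cells that are open at an interval and a change in openness per cell cannot be told apart in sorted pools.

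At HH18 the selected intervals had a median of 18.2 CPM in E2-only cells, against 2.86 CPM in double-positive and 4 CPM in double-negative cells. Over all intervals the medians of these groups were 3.56, 3.7 and 3.99 CPM. The selected intervals were therefore at about the ordinary level in double-negative cells, below it in double-positive cells and far above it in E2-only cells. Of the 3449, 2619 (75.9%) had a lower mean in double-positive than in double-negative cells, and over all intervals this held for 59.7%. The median ratio of E2-only to double-positive cells was 4.66 and that of E2-only to double-negative cells 3.72. The ratio to double-positive cells reached 5 at 1473 intervals and the ratio to double-negative cells at 331. Taken singly, the ratio to double-positive cells was at least 3 at 7568 intervals and the ratio to double-negative cells at 5898.

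**Figure D1:**
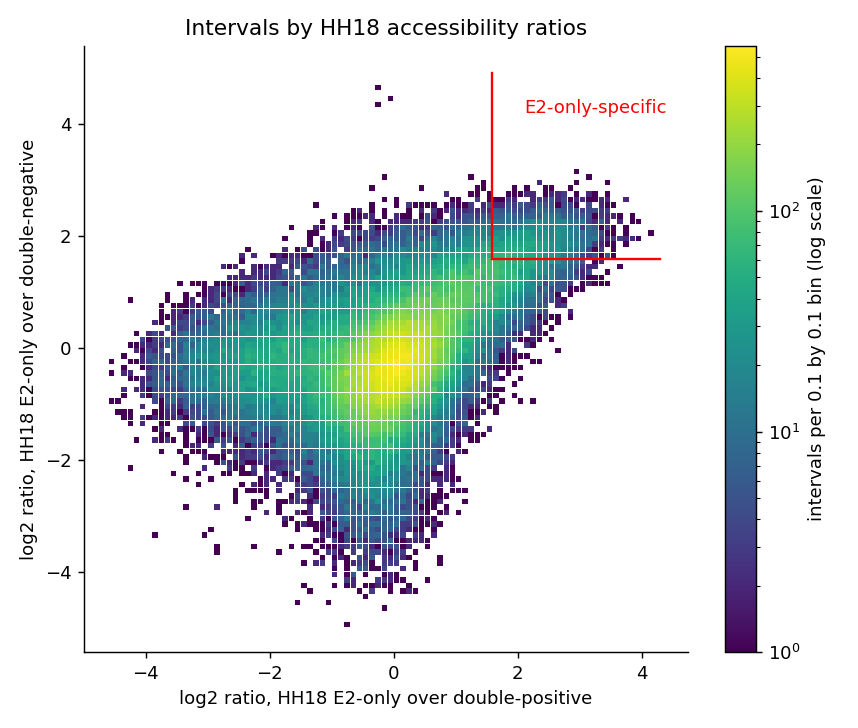
All 140062 intervals by the log2 ratio of HH18 E2-only over double-positive cells (x axis) and over double-negative cells (y axis), each as mean CPM plus 1, with colour for the number of intervals per bin. The red lines bound the 3449 selected intervals, which form the upper right end of a continuous cloud and no separate group.

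The reads in the selected intervals were also taken as a share of each library, which at HH18 the choice of intervals sets in part. They held 7.72%, 7.75% and 8.1% of the reads in the HH18 E2-only libraries. They held 1.31%, 1.25% and 1.43% in the HH18 double-positive libraries and 1.79%, 1.69% and 1.84% in the HH18 double-negative libraries. At HH25 the same intervals held 1.25%, 1.04% and 1.1% of the E2-only reads, 0.862%, 0.808% and 0.897% of the double-positive reads and 1.05%, 0.775% and 0.911% of the double-negative reads. The HH25 E2-only libraries lay above the double-positive ones, and they overlapped the double-negative ones. In all 9 HH25 libraries the share was below the 2.46% that the intervals make up by number.

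**Figure D2:**
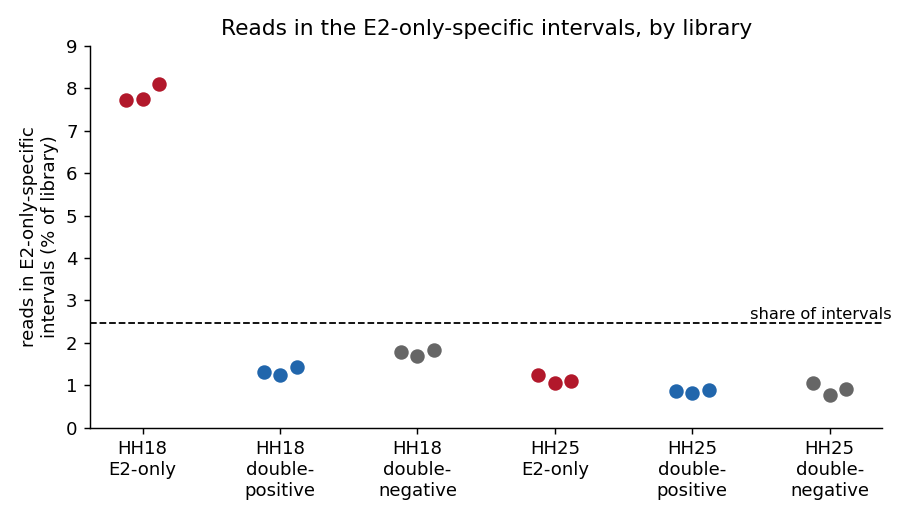
Reads in the 3449 selected intervals as a percentage of each library's total, with 1 point per library and groups along the x axis. The dashed line marks the share of intervals by number, 2.46%, and only the 3 HH18 E2-only libraries, at 7.72% to 8.1%, lie above it.

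The interval with the largest smaller ratio lay on chromosome Z from 18866381 to 18866581 in the submitters' galGal5 coordinates, which are printed as the table lists them throughout. It stood at 26.9, 28.2 and 35.6 CPM in HH18 E2-only libraries, at 2.59, 2.33 and 2.65 CPM in double-positive and at 2.22, 3.02 and 2.88 CPM in double-negative libraries. The E2-only libraries stood apart from all others, and the other populations overlapped. At HH25 it was at 1.88, 0.877 and 1.99 CPM in E2-only, 0.383, 0.72 and 1.59 CPM in double-positive and 2.16, 1.8 and 2.17 CPM in double-negative libraries. The HH25 groups thus all lay near the bottom of the range, and no HH25 comparison passed the test (edgeR adjusted p from 0.31 to 0.78).

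The next was on chromosome 12 from 5221479 to 5221679. Its E2-only libraries were tightly grouped at HH18, at 30.1, 30.5 and 29.1 CPM, against 1.15, 2.33 and 5.3 CPM in double-positive and 4.16, 2.02 and 2.52 CPM in double-negative libraries. At HH25 its means were 3.75 CPM ± 1.76 (SD, n = 3) in E2-only, 2.3 ± 0.816 in double-positive and 2.78 ± 1.57 in double-negative cells, differences within the spread of replicates. On chromosome 2 from 125672627 to 125672827 the HH18 E2-only libraries stood at 30, 42.1 and 39.4 CPM, the double-positive ones at 2.88, 3 and 1.66 CPM and the double-negative ones at 3.33, 3.02 and 5.4 CPM. There the HH25 means were 1.16 CPM ± 0.691 in E2-only, 1.73 ± 0.171 in double-positive and 1.08 ± 0.734 in double-negative cells. The other 3 of the 6 strongest lay on chromosome 5 from 29344960 to 29345160, chromosome 13 from 16321499 to 16321699 and chromosome 4 from 45265017 to 45265217. They had HH18 E2-only means of 49, 23 and 18.1 CPM and HH25 E2-only means of 3.56, 2.07 and 2.23 CPM. None of the 6 passed the HH25 test in any of the 3 comparisons.

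The intervals with the highest HH18 E2-only level were partly open in the other populations too. The highest was on chromosome 5 from 40936058 to 40936258, at 132, 116 and 141 CPM in HH18 E2-only libraries, against 40.8, 32.3 and 39.4 CPM in double-positive and 34.4, 35.3 and 35.3 CPM in double-negative libraries. At HH25 it was at 16.2, 15.8 and 16.7 CPM in E2-only, 22.6, 14.8 and 22.5 CPM in double-positive and 10.6, 6.41 and 10.6 CPM in double-negative libraries. At HH25 2 of the 3 double-positive libraries lay above all E2-only libraries, and all double-negative libraries lay below both. Double-positive cells were higher than double-negative cells there (log2 fold change 1.16, SE 0.25, edgeR adjusted p = 0.00022). E2-only cells were higher than double-negative cells by less (log2 0.77, SE 0.25, edgeR adjusted p = 0.04), a call lost under 8 of 17 alternatives, where the adjusted p ran from 0.0099 to 0.26.

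The other 5 of the 6 highest lay on chromosome 3 at 83593160, 100431733 and 56286564, chromosome 4 at 59824305 and chromosome 5 at 34244020, these being starts of 200 bp intervals. Their HH18 E2-only means ran from 107 to 116 CPM. The double-negative means ran from 24.2 to 34 CPM and the double-positive means from 10.6 to 29.8 CPM. At HH25 the E2-only means were 2.97 to 19.9 CPM, and none of the 5 passed the test in any HH25 comparison. The chromosome 3 interval at 56286564 had 102, 108 and 111 CPM in E2-only libraries at HH18 and 2.81, 4.61 and 1.5 CPM at HH25.

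Membership was set by a threshold in a continuous cloud. The 3 intervals just inside it, on chromosomes Z, 1 and 4, had HH18 E2-only means of 9.88, 13.1 and 5.56 CPM, and the 3 just outside, on chromosomes 1, 5 and 8, had 26.2, 14 and 12 CPM. The number selected was 5227 with totals scaled by the trimmed mean of M values (TMM), which gave the HH18 E2-only libraries factors of 0.844 to 0.872 and the HH18 double-negative ones 0.993 to 1.06. All 3449 were among the 5227.

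The HH25 libraries were then used to ask whether these intervals still set E2-only cells apart at the later stage. Few of them passed the test there. In HH25 E2-only against double-negative cells 40 of the 3449 intervals were called higher (1.16%) and 6 lower (0.174%), where 4.34% and 3.13% of all intervals were called (edgeR quasi-likelihood test over all 140062 intervals, Benjamini-Hochberg adjusted p below 0.05). The median log2 fold change was 0.241, against 0.0398 over all intervals, and 66.4% of the selected intervals were above 0, against 52.8%. The shift of the median was small beside the spread among the selected intervals, with quartiles of -0.14 and 0.64. That spread does not measure how firm the median is. With any 1 HH25 library left out the median ran from 0.16 to 0.35. Among intervals averaging below 2 CPM over the HH25 libraries, the medians were 0.17 for the selected and 0.13 for all. From 2 to 5 CPM they were 0.278 and 0.0747, and from 5 to 10 CPM 0.25 and 0.0785. Above 10 CPM they were 0.334 and -0.0944. Single libraries weighed on the count of 40, which was 13 without HH25 E2-only replicate 1, 22 without E2-only replicate 2, 16 without double-negative replicate 2 and 26 without double-negative replicate 3. The count of 6 was 3 without E2-only replicate 2, double-negative replicate 2 or double-negative replicate 3. In the fits named for the count of 40, the share of all intervals called higher fell too, to 2.66%, 3.09%, 2.66% and 2.83%. In those named for the count of 6, the share of all intervals called lower fell to 2.24%, 1.75% and 2.3%. In each of these fits the share called stayed below that of all intervals.

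Against HH25 double-positive cells, 162 of the 3449 intervals were called higher in E2-only cells (4.7%) and 26 lower (0.754%), where 2.91% and 5.86% of all intervals were called. This comparison shares its E2-only libraries with the one above. The median log2 fold change was 0.28, with quartiles of -0.252 and 0.782, against -0.00889 over all intervals. The share called higher, taken over the intervals each setting tested, exceeded that of all intervals in all 19 settings tried. Of these, the fit of all 18 libraries includes the HH18 libraries that chose the intervals. The count of 162 was 76 without HH25 E2-only replicate 1 and 106 without double-positive replicate 3. The share of all intervals called higher was then 1.9% and 2.13%. The count of 26 was 9 to 17 without any 1 E2-only or double-positive library. The share of all intervals called lower was then 3.65% to 4.65%.

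Between HH25 double-positive and double-negative cells the selected intervals had a smaller share of calls than all intervals in both directions. In double-positive cells 93 were called higher (2.7%) and 119 lower (3.45%), where 12.5% and 8.33% of all intervals were called. Their median log2 fold change was -0.032, against -0.00833 over all intervals. The count of 119 was 71 without HH25 double-negative replicate 1. The share of all intervals called lower was then 7.64%.

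When the selection rule itself was applied to the HH25 libraries, 2 of 140062 intervals passed it, and neither was among the 3449. The constant added to each mean limits this test. The selected intervals had a median of 2.48 CPM in HH25 E2-only cells, and at that level or below no interval could pass. The lowest HH25 mean of any interval was 0.207 CPM in double-negative and 0.336 CPM in double-positive cells. The absence of selected intervals is thus set in part by their low level. With both ratios at 2 or more, 216 intervals passed, 12 of them selected at HH18, which is 0.348% of the selected intervals and compares with 0.154% of all. No HH25 ratio of E2-only to double-negative cells reached 4 at a selected interval, and the highest was 3.23. The highest ratio to double-positive cells was 3.78. A ratio of 4 was rare over all 140062 intervals too. It was reached at 49 against double-negative and at 12 against double-positive cells, so its absence here says little about the selected intervals.

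A list made in the mirrored way behaved otherwise at HH25. At HH18 7657 intervals were at least 3 times higher in double-positive than in both E2-only and double-negative cells. At HH25 6168 of them (80.6%) were called higher in double-positive than in double-negative cells, where 12.5% of all intervals were called. In E2-only cells 3906 (51%) were called lower than in double-positive cells, where 5.86% of all intervals were called. In E2-only cells 2328 of the 7657 (30.4%) were called higher than in double-negative cells, where 4.34% of all intervals were called. The median log2 fold change of the 7657 in that comparison was 0.914. Their median log2 fold change between HH25 double-positive and double-negative cells was 2.08, whereas the selected E2-only intervals had 0.241 between HH25 E2-only and double-negative cells. Applied to HH25, the mirrored rule kept 478 (6.24%) of the 7657, which made up 71.9% of the 665 intervals it selected there. The 7657 had a median of 9.26 CPM in HH25 double-positive cells, so the constant added to each mean limited this rule less. Whether the lists differ beyond chance was not tested, since intervals of 1 library are not replicates.

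**Figure D3:**
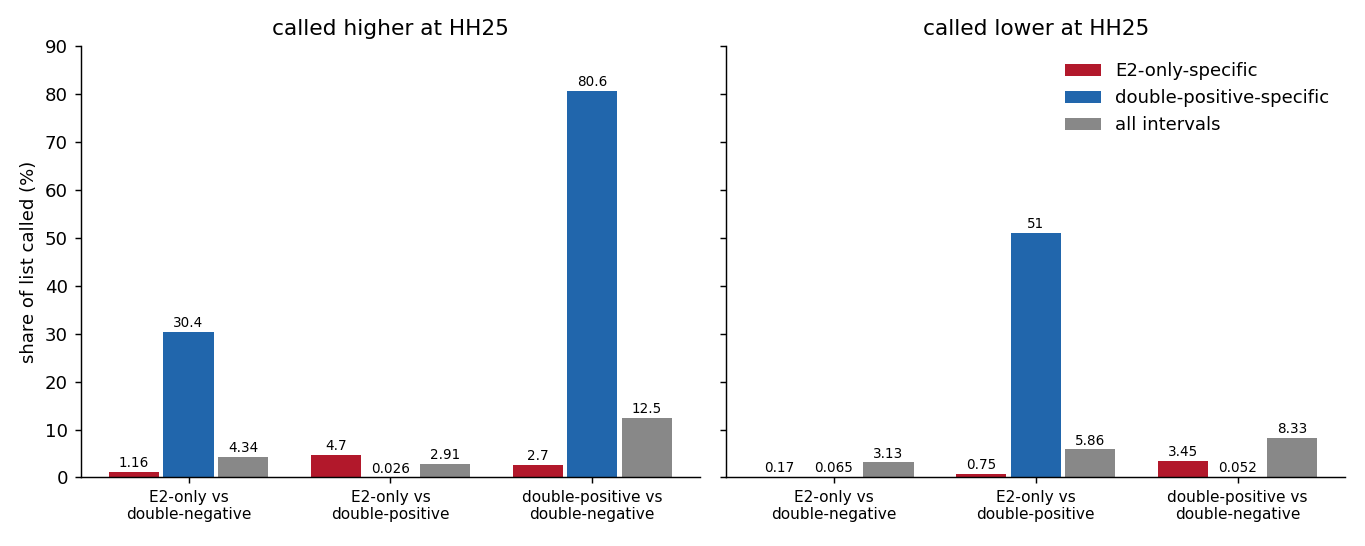
Share of each list called higher (left) and lower (right) in the 3 HH25 comparisons, in percent, for the 3449 E2-only-specific intervals, the 7657 double-positive-specific intervals and all 140062 intervals. E2-only-specific intervals exceed the share of all intervals in 1 panel position, higher in E2-only than in double-positive cells, at 4.7% against 2.91%.

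The number of calls depends on level, and the selected intervals were low at HH25. Averaged over the 9 HH25 libraries, 44.5% of them were below 2 CPM, as were 14.5% of all intervals. Below 2 CPM 0.456% were called higher in E2-only than in double-negative cells, against 0.516% of all intervals at that level. From 2 to 5 CPM the shares were 1.05% and 2.29%, and from 5 to 10 CPM they were 2.99% and 7.49%. Above 10 CPM the order turned, with 7 of 48 selected intervals called (14.6%) and 7.37% of all. Of the double-positive-specific intervals, 28.6%, 73.8%, 90.6% and 93.4% at these levels, lowest first, were called higher in double-positive than in double-negative cells. In that comparison 4.11%, 12%, 17.3% and 13.5% of all intervals were called higher, more at each level than in E2-only against double-negative cells. Why the lists differ was not tested. For E2-only against double-positive cells the selected intervals had the larger share of higher calls at each level, with 0.456% against 0.206% below 2 CPM, 6.47% against 1.68% from 2 to 5 CPM, 14.3% against 4.38% from 5 to 10 CPM and 16.7% against 5.7% above that. Between double-positive and double-negative cells the smaller share of calls did not hold at each level. Above 10 CPM 20.8% of the selected intervals (10 of 48) were called higher in double-positive cells, against 13.5% of all, and from 5 to 10 CPM 11.9% were called lower, against 11.4%.

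The HH25 values were then split by the strength of the HH18 pattern. The 1150 intervals with the largest smaller ratio at HH18, from 3.88 to 8.43, had a median log2 fold change of 0.214 between HH25 E2-only and double-negative cells, with 8 higher calls. The 1149 in the middle had 0.254, with 19 higher calls, and the 1150 with the smallest, from 3 to 3.34, had 0.256, with 13, where 4.34% of all intervals were called. For E2-only against double-positive cells the medians from the largest ratios to the smallest were 0.33, 0.268 and 0.25, with 61, 61 and 40 higher calls, where 2.91% of all intervals were called. The calls against double-negative cells thus followed no order by HH18 ratio. Sorted by HH18 E2-only level instead, the top 1150 had a median of 4.06 CPM in HH25 E2-only cells, 2.82 CPM in double-positive and 3.34 CPM in double-negative cells. The bottom 1150 had 1.65, 1.46 and 1.38 CPM in the same groups. Intervals that were more open at HH18 were thus also the more open ones at HH25, in all 3 populations.

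Side by side, the stages differed most in E2-only cells, where the choice of intervals fixes part of the difference. The median level was 18.2 CPM at HH18 and 2.48 CPM at HH25 in E2-only cells, 2.86 and 1.93 CPM in double-positive cells, and 4 and 2.04 CPM in double-negative cells. Over all intervals the HH25 medians were 4.57, 4.33 and 4.2 CPM, so the selected intervals were below the ordinary level in each HH25 population. The HH25 mean was below the HH18 mean at 3446 of the 3449 intervals in E2-only cells, at 2545 (73.8%) in double-positive and at 2913 (84.5%) in double-negative cells. Over all intervals these shares were 40.5%, 44.8% and 50.9%. In E2-only cells 99 selected intervals (2.87%) still averaged at least 10 CPM at HH25, whereas 2938 (85.2%) had done so at HH18. Among all intervals 18.8% did so at HH25 and 20.3% at HH18. Stage and any unlabelled difference in handling of the libraries cannot be told apart.

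**Figure D4:**
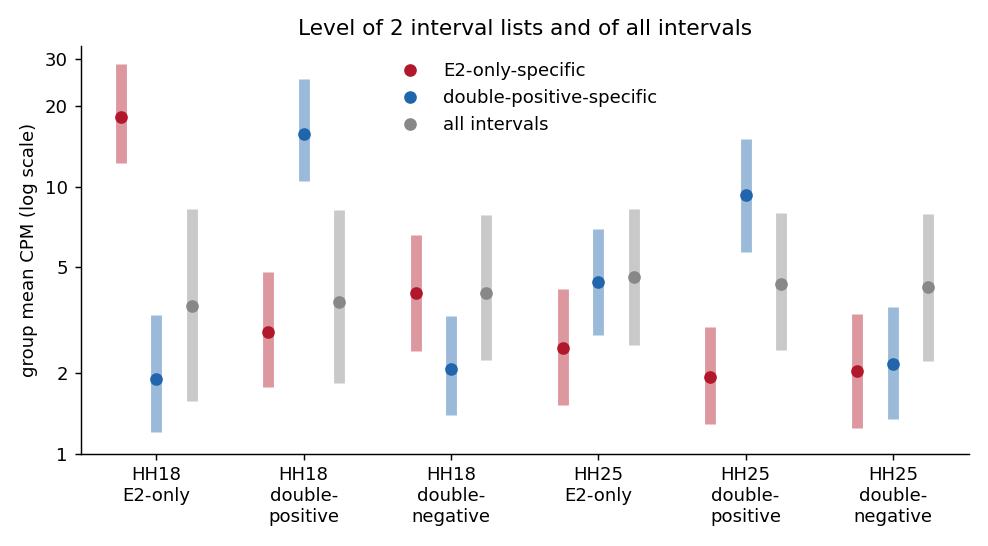
Median (points) and quartiles (bars) of the group mean CPM, on a log axis, for the 3449 E2-only-specific intervals, the 7657 double-positive-specific intervals and all intervals in the 6 groups. The E2-only-specific intervals stand at 18.2 CPM in HH18 E2-only cells and at 1.93 to 2.48 CPM in the HH25 groups, while the double-positive-specific ones stand at 15.7 CPM in HH18 and 9.26 CPM in HH25 double-positive cells.

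At HH25 the higher calls in E2-only cells were 40 against double-negative cells (1.16%, with 4.34% of all intervals called). Against double-positive cells they were 162 (4.7%, with 2.91% of all called). The ones with the largest log2 fold change among the higher calls were singled out after their values were seen. On chromosome 5 from 12642859 to 12643059 the HH25 E2-only libraries stood at 4.69, 3.29 and 5.23 CPM, the double-positive ones at 1.53, 1.44 and 3.44 CPM and the double-negative ones at 0.899, 0.4 and 0.722 CPM. All E2-only libraries lay above all double-negative ones and overlapped the double-positive ones (log2 against double-negative 2.6, SE 0.6, edgeR adjusted p = 0.0014, and 0.00026 to 0.02 under the alternatives). E2-only cells did not pass the test against double-positive cells there (log2 0.9, SE 0.54, edgeR adjusted p = 0.34). The double-negative counts summed to 10 over 3 libraries. At HH18 this interval averaged 12 CPM ± 1.33 (SD, n = 3) in E2-only, 1.25 ± 0.228 in double-positive and 1.55 ± 0.845 in double-negative cells. The next 2 by that order, on chromosome 2 at 70292954 and chromosome 7 at 14455810, had double-negative counts that summed to 5 and 4, near the lowest value, and lost their calls under 4 of 16 and 10 of 15 alternatives. Neither passed against double-positive cells (edgeR adjusted p = 0.93 and 0.58). On chromosome 2 the HH25 means were 2.23 CPM in E2-only and 2.38 CPM in double-positive cells. Double-positive cells were called higher than double-negative cells there too (edgeR adjusted p = 0.0049).

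Against double-positive cells the 3 largest were on chromosome 3 from 68506395 to 68506595, chromosome 2 from 146736283 to 146736483 and chromosome 2 from 28487973 to 28488173. The first stood at 6.1, 3.29 and 2.99 CPM in HH25 E2-only, 0.383, 0.36 and 0.529 CPM in double-positive and 1.44, 1.4 and 1.2 CPM in double-negative libraries. The second stood at 5.63, 6.14 and 1.99 CPM in E2-only, 0.383, 1.44 and 0.264 CPM in double-positive and 3.78, 2.6 and 3.85 CPM in double-negative libraries. E2-only libraries did not overlap double-positive ones in either (edgeR adjusted p = 0.002 and 0.003). Their double-positive counts summed to 4 and 6, near the lowest value, so no fold is given. The remaining one had double-positive counts that summed to 5 (edgeR adjusted p = 0.0081), and its call was lost without E2-only replicate 1 (adjusted p = 0.053), 1 of 16 alternatives. The second was also at a like level in double-negative cells, and E2-only cells did not pass the test against these (log2 0.39, SE 0.47, edgeR adjusted p = 0.72). They did not pass against double-negative cells at the first either (log2 1.53, SE 0.55, edgeR adjusted p = 0.074). The same held at the remaining one (log2 1.18, SE 0.55, edgeR adjusted p = 0.21).

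At HH25 every E2-only library lay below every double-negative library at 74 of the selected intervals (2.15%), where this held for 10.1% of all intervals. Every E2-only library lay below every double-positive library at 139 (4.03%), against 11.5% of all. The opposite order was more frequent, as it also was over all intervals. All E2-only libraries lay above all double-negative ones at 470 of the selected intervals (13.6%), against 14.9% of all. They lay above all double-positive ones at 671 (19.5%), against 14.3% of all. The intervals called lower with the most negative log2 fold change are given next. On chromosome 1 from 94127627 to 94127827 the HH18 libraries stood at 17.6, 17.8 and 20.3 CPM in E2-only, 2.59, 4.66 and 2.32 CPM in double-positive and 8.88, 4.03 and 3.6 CPM in double-negative cells. At HH25 they stood at 1.41, 1.97 and 1.5 CPM in E2-only, 1.53, 1.8 and 3.17 CPM in double-positive and 9.35, 12.2 and 5.06 CPM in double-negative cells. All double-negative libraries lay above all others at HH25. E2-only cells were lower than double-negative cells there (log2 -2.49, SE 0.44, edgeR adjusted p = 1.6e-05, and at most 0.0043 under the alternatives). On chromosome 3 from 30894071 to 30894271 the HH25 means were 3.84 CPM ± 0.927 in E2-only, 1.74 ± 0.94 in double-positive and 9.64 ± 1.71 in double-negative cells (SD, n = 3; log2 of E2-only against double-negative -1.38, SE 0.37, edgeR adjusted p = 0.0087). That call was lost without E2-only replicate 2 or double-negative replicate 2, and the adjusted p under the alternatives was 0.0029 to 0.11. Chromosome 23 at 3407764 and chromosome 17 at 5496428 were lower too (log2 -1.43 and -1.26, edgeR adjusted p = 0.035 and 0.036), each lost under 7 of 17 alternatives. Against double-positive cells the lowest were chromosome Z at 70292861 and chromosome 20 at 7159892, whose HH25 E2-only counts summed to 5 and 4 (edgeR adjusted p = 0.014 and 0.022). These calls were lost under 5 and 6 of 15 alternatives, with an adjusted p of up to 0.14 and 0.15.

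**Figure D5:**
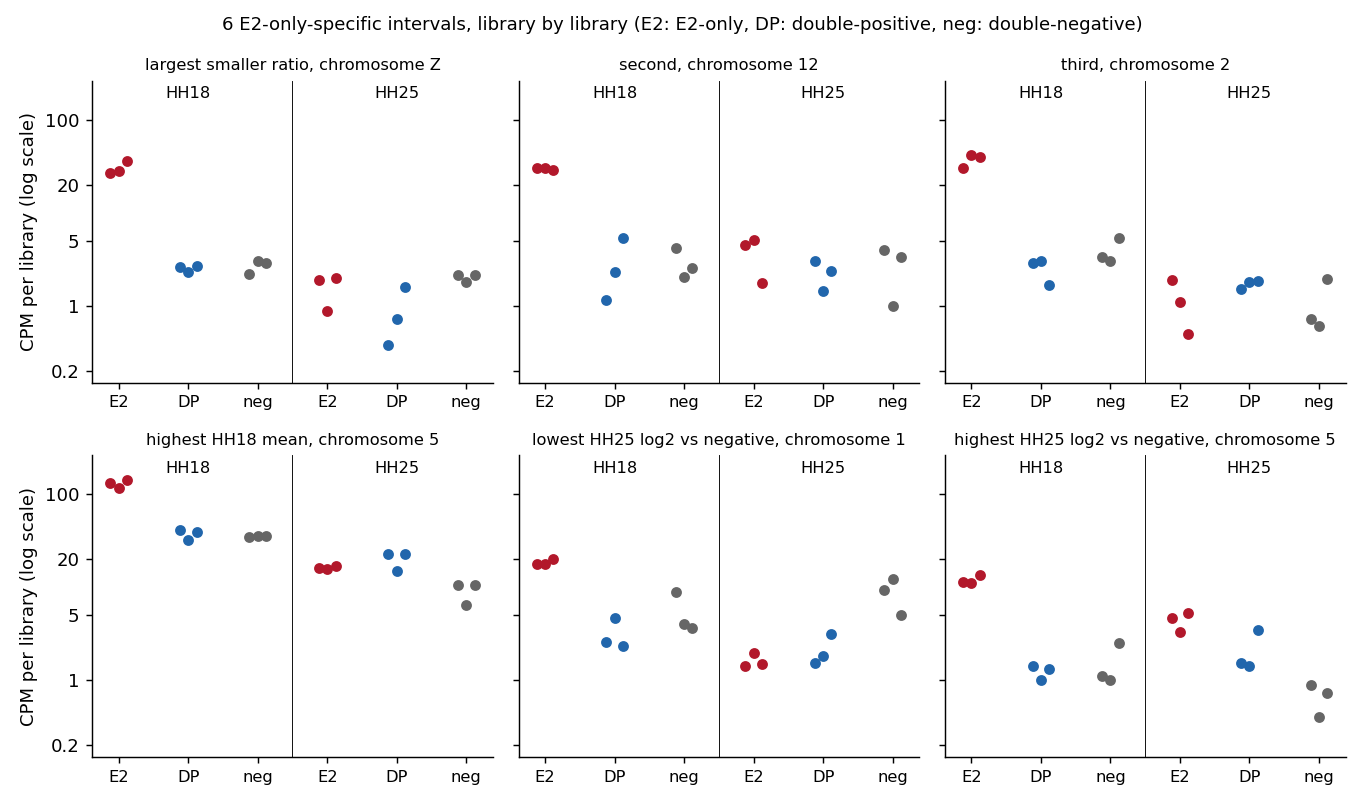
CPM per library, on a log axis, at 6 of the selected intervals, with 1 point per library, E2-only, double-positive and double-negative cells from left to right within each stage. HH18 E2-only libraries lie highest in every panel, and the HH25 order differs between panels, with double-negative libraries highest on chromosome 1 and all E2-only libraries above the double-negative ones in the last panel, on chromosome 5.

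The selected intervals were spread over the genome. Their share of all intervals was 2.68% for chromosomes 1 to 5, 2.61% for chromosomes 6 to 10, 1.97% for the small chromosomes 11 to 33, 3.48% for chromosome Z and 0.897% for contigs outside the assembled chromosomes. None of the 105 chromosome W intervals was selected. Chromosomes 1 to 5 held 1996 of them and chromosome Z held 274. The double-positive-specific intervals had a like order, with 6.35%, 5.71%, 3.49%, 6.99% and 2.24% of the same classes. Among the assembled chromosomes with over 1000 intervals, chromosome Z held the largest share and chromosome 11, at 3.03%, the next. No correction for base composition was made, since no genome of the build was used. The HH25 comparison with double-negative cells called higher 1.45% of those selected from chromosomes 1 to 5, where 5.19% of all intervals were called. The shares were 0.911% against 2.48% for chromosomes 11 to 33 and 0.365% against 4.74% for chromosome Z. In the comparison with double-positive cells the share called higher was 5.81% against 3.39% for chromosomes 1 to 5 and 4.38% against 2.17% for chromosome Z. For chromosomes 11 to 33 it was the smaller one, at 1.82% (10 of 549) against 2.61%.

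Selected intervals lay about as close to other intervals as intervals at large. The distance between centres from a selected interval to the nearest other interval had a median of 2956 bp, against 3061 bp over all intervals, and 4.54% and 4.45% had one within 1000 bp. The nearest other selected interval lay at a median of 80329 bp. With neighbours linked at gaps of up to 50 kb, 1277 of the 3449 fell into 543 groups of at least 2, and 2172 stood alone. Groups of at least 4 numbered 41 and held 181 intervals.

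The largest group lay on chromosome 1 from 97178736 to 97386457, with 8 selected among 37 intervals in 208 kb. Its selected intervals had a median of 15.2 CPM in HH18 E2-only, 3.32 in double-positive and 3.46 in double-negative cells, and the other intervals between them had 3.81, 3.71 and 3.22 CPM. At HH25 the selected ones had 3.06 CPM in E2-only, 2.06 in double-positive and 1.78 in double-negative cells. The next lay on chromosome 11 from 13828547 to 13928781, with 6 of 14 intervals in 100 kb. There the selected intervals had a median of 14.8 CPM in HH18 E2-only, 2.59 in double-positive and 3.76 in double-negative cells. The others in that stretch had 2.32, 3.08 and 6.01 CPM, so neighbouring intervals were lowest in the E2-only cells. On chromosome 1 from 55000708 to 55113742, 6 of 18 intervals were selected, with medians of 19, 2.88 and 4.25 CPM in HH18 E2-only, double-positive and double-negative cells. The intervals between them had 6.16, 5.71 and 1.94 CPM in the same groups, so there the neighbours too were higher in E2-only than in double-negative cells, but not far from the double-positive level.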

How the data were processed

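ATAC-seq counts of 18 libraries in 6 groups were used. The deposited values are raw read counts per interval, per the labels. Per the submitters' processing notes the tools were Bowtie 1.0.0, MACS2 and HOMER 4.7 and the build galGal5, with no roles given, so how intervals were chosen, duplicates treated and insertions shifted is not stated. Per the labels' protocols, tagmentation took 20 min, amplification 11 cycles and reads were 40 bp paired-end. Whether coordinates count from 0 or 1 is not given, and 4 starts are below 0. A further 9 columns carry a stage that the labels do not give and were left out. HH10 cells are not analysed here.

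CPM were computed from column totals over all rows. HH25 comparisons were fitted with edgeR 4.0.16 in R 4.3.3 to the 9 HH25 libraries, with TMM scaling, 1 mean per group and no filter, so that all 3449 intervals were tested. Each SE is the log2 fold change over the square root of F. The procedure was tested on simulated data with changes placed only in intervals above 2 CPM. How often changes are found below that level, where 44.5% of the selected intervals lay at HH25, was not tested. DESeq2 1.42.0 was an alternative. The labels name biological replicates, with no animals or pools given.

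The members, tests and lists were chosen with earlier results of these data known. Named intervals were the 6 with the largest smaller HH18 ratio, the 6 with the highest HH18 E2-only mean, the strongest passing the rule at HH25 (none did), 4 and 2 with the most negative log2 fold change among those called lower at HH25 against double-negative and double-positive cells, those nearest the threshold, and the 3 largest groups linked at 50 kb. Others are said to be chosen after their values were seen. The planned gene and motif counts were not made, for want of a genome of the build.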

Additional observations from a re-analysis of the deposited data

Results flagged for a closer look

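At 6 named intervals every HH18 E2-only library lay above, and every HH25 E2-only library below, all libraries of another population of the same stage. They are not the only ones. All 3449 selected intervals had the HH18 order, which the choice of intervals by HH18 values sets in part. Of all 140062 intervals, 25880 had that order against double-negative and 29821 against double-positive cells. Of the 3449, 74 (2.15%, against 10.1% of all intervals) had the HH25 order against double-negative cells. Against double-positive cells 139 (4.03%, against 11.5%) had the HH25 order. The difference between the stages itself was not tested, since HH18 values chose the intervals. Against double-negative cells these were chromosome 1 at 94127627 (HH25 log2 fold change -2.49), chromosome 23 at 3407764 (-1.43), chromosome 3 at 30894071 (-1.38) and chromosome 17 at 5496428 (-1.26). Against double-positive cells they were chromosome Z at 70292861 (-2.66) and chromosome 20 at 7159892 (-2.61), where HH25 E2-only counts summed to 5 and 4 over 3 libraries, so the size of these folds rests on values near the lowest. The 6 were named for being lower at HH25, so this order there is part of their choice.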

How the results depend on the processing

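For each comparison and direction, the share of selected intervals called stayed on 1 side of that of all intervals in all 19 settings tried. It was above only for higher calls in E2-only against double-positive cells. Among these settings, the fit of all 18 libraries includes the HH18 libraries that chose the intervals. Shares were taken over the intervals that each setting tested. DESeq2 tested fewer of the selected intervals, as did an edgeR fit that left out low-count intervals (2041). Higher and lower calls of E2-only against double-negative cells were 40 and 6; of these counts, DESeq2 gave 19 higher, 1 fit of all 18 libraries 85 higher, thinning to the lowest total 22 and 3, and an adjusted p below 0.01 left 11 and 2. For E2-only against double-positive cells (162 and 26), DESeq2 gave 97 and 12, the fit of 18 libraries 252 and 47, and an adjusted p below 0.01 63 and 7; the lower calls were 16 with library totals alone, 12 with 1 subtracted from each count (in case the authors had added 1) and 15 after thinning. For double-positive against double-negative cells (93 and 119), DESeq2 gave 59 and 76. An adjusted p below 0.01 gave 42 and 41, and the fit of 18 libraries 147 higher. DESeq2 tested 1834, 1597 and 2465 of the selected intervals in these comparisons, in the order given. As a share of those, its higher calls were 1.04%, 6.07% and 2.39%, against 1.16%, 4.7% and 2.7% in the main fit. Its counts therefore cannot be set directly against those of the main fit. With any 1 HH25 library left out, the counts in that order were 13 to 52 and 3 to 7, 76 to 166 and 9 to 27, and 64 to 93 and 71 to 111. The number selected was 3376 to 3616 without 1 HH18 library, 5227 with TMM-scaled totals, 2135 with 2 CPM added, 10255 at a ratio of 2 and 981 at 4. The number passing the rule at HH25 was 0 without any 1 HH25 library and 12 at a ratio of 2.

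Member lists drawn otherwise were added after seeing the data. The 5227 intervals of TMM-scaled totals had 70 higher calls of E2-only against double-negative cells (1.34%), 40 lower against double-positive cells, and 161 higher and 187 lower for double-positive against double-negative cells. The 981 at a ratio of 4 had 6 and 0, 55 and 4, and 18 and 37. The list drawn without HH18 double-negative replicate 2 had 48 and 4, 162 and 27, and 106 and 118. The shares of all intervals called, in that order, were 4.34% and 3.13%, 2.91% and 5.86%, and 12.5% and 8.33%; of these lists' shares, those called higher in E2-only than in double-positive cells (4.27%, 5.61% and 4.51%) were above, and the others below.

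With the replicate number as a block the counts were 38 and 5, 158 and 26, and 90 and 106. Same-numbered HH25 libraries deviated together with correlations of -0.04 to 0.11, only 1 of 9 pairs over 0.1, and differently numbered ones with -0.09 to 0.07. Between E2-only and double-negative libraries the same-numbered pairs (0.11, 0.0668 and 0.0256) lay above the others (-0.0864 to 0.0211). For pairs with double-positive libraries the ranges overlapped. Whether the numbers pair the samples cannot be told from these values. Of 20 named calls 11 were lost under at least 1 alternative, and none turned sign. Low counts limit the test: 44.5% of the selected intervals averaged below 2 CPM at HH25. The causes of these differences were not tested.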
